A study of Mus musculus with 4 samples.

Results

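The Slc25a genes encode the mitochondrial carriers, a family of small transporters that pass metabolites, nucleotides, cofactors and metal ions across the inner mitochondrial membrane. Values were obtained for 46 Slc25a genes, measured by 50 of the 34760 probe sets on 4 Affymetrix Mouse Gene 1.0 ST arrays. Members were all probe sets whose single gene symbol began with Slc25a, without pseudogenes, and they stand for 46 of the 19937 genes that had their own probe set. The arrays held RNA of pro-B cells, isolated from C57BL/6 bone marrow as B220+cKit+ cells, the mice being wild type. All 4 arrays, replicates 1 to 4, belong to 1 group, so every statement is a description of the spread between replicates and no test between groups was possible. Neither the age of the mice nor any treatment is given, and separate mice for each replicate are not stated. The gate is a model of the pro-B stage only as far as c-Kit and B220 mark it, and c-Kit is also carried by other marrow progenitors.

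The sorted cells had the defining early B-cell transcripts, together with transcripts of other marrow lineages. Of 15 early B-cell markers, 14 lay above the background line (explained with the detection counts), the exception being Rag2, which missed it on 1 array. All 13 erythroid markers and all 13 granulocyte and monocyte markers were above it too. The erythroid markers had a mean log2 value of 8.95 on the array of replicate 1 against 10.30 to 10.56 on the others, and the early B-cell markers one of 11.15 on that array against 10.23 to 10.70. The granulocyte and monocyte markers had means of 11.87 to 12.38, lowest on replicate 2. Replicate 3 alone lacked Xist, at a log2 value of 5.48 against 13.04 to 13.17. In a bulk sort, fewer cells of a type and less RNA per cell cannot be told apart, which applies to every difference between arrays described here.

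A mitochondrial carrier alternates between a state open to the cytosol and one open to the matrix, and most exchange one substrate for another. In this way they supply ADP and phosphate to ATP synthase, move reducing equivalents and citrate, and bring in cofactors. Developing red cells depend on some of them for haem, which is made partly inside the mitochondrion. Slc25a38 imports the glycine used in the first step of haem synthesis, and Slc25a37, or mitoferrin-1, imports the iron inserted in the last. Slc25a21 carries oxodicarboxylates such as 2-oxoadipate, intermediates of lysine and tryptophan breakdown, and is not itself known as a haem gene.

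Most carriers were detected. A gene was taken as above background when a probe set was brighter on every array than a line drawn from 1246 probe sets for receptors of smell and taste, genes silent in marrow. The line was their 95th percentile on each array, at log2 values of 6.53 to 6.62. This held for 40 of 46 carrier genes (87.0%), where it held for 63.5% of all genes. The 6 carriers that did not pass were Slc25a2, Slc25a31, Slc25a34, Slc25a41, Slc25a48 and Slc25a54. Slc25a31, the ADP/ATP carrier known from testis, stayed at log2 values of 4.49 to 4.74. Slc25a41, a relative of the ATP-Mg/phosphate carriers, was above the line on 2 of 4 arrays. Of 8 relatives listed under other symbols, only 4 had their own probe set. Of these, Mtch1 and Mtch2 were above background, whereas the uncoupling proteins Ucp1 and Ucp3 were not. Nothing can be said here of the relatives without one.

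Replicate arrays differed little for the carriers as a family. For the 40 detected carriers the SD of the log2 values had a median of 0.127, beside 0.114 for all detected genes. Their ranges, the highest minus the lowest array, ran from 0.05 for Slc25a12 to 1.63 for Slc25a21, with a median of 0.28 beside 0.25 for all detected genes. Only Slc25a21 and Slc25a53 spanned at least 1 on the log2 scale, a 2-fold range, which is 2 of 40 carriers (5.0%) and 1.65% of all detected genes. Each range rested partly on single arrays. Without replicate 1 that of Slc25a21 was 0.69 and that of Slc25a53 0.89, and without replicate 4 that of Slc25a53 was 0.60.

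**Figure D1:**
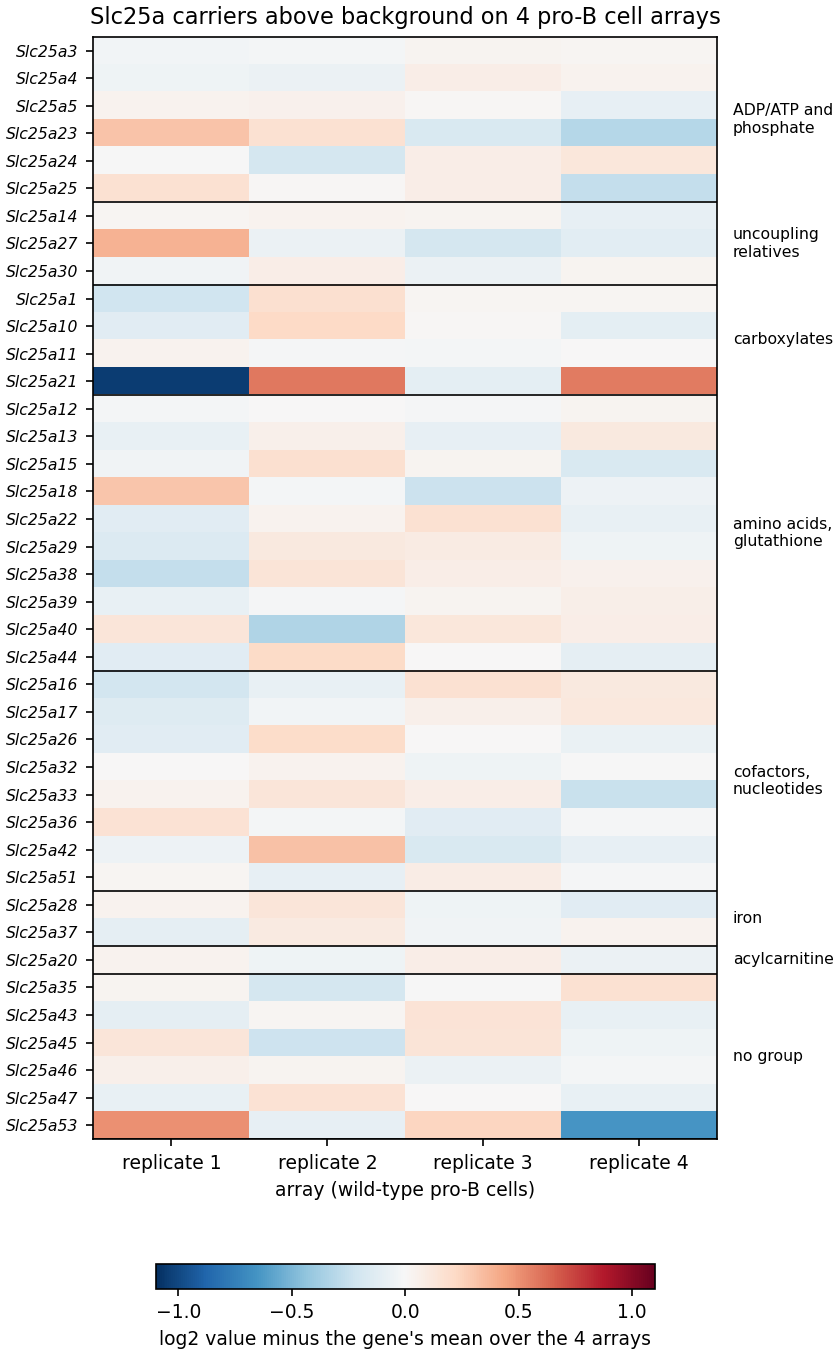
Heat map of the 40 carriers above background (rows, grouped by substrate) on the 4 pro-B cell arrays (columns). Colour is the log2 value minus the gene's mean over the 4 arrays; Slc25a21 and Slc25a53 stand out, with ranges of 1.63 and 1.15, while the median range was 0.28.

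Among Slc25a21, Slc25a38 and Slc25a37, the first differed most between arrays. Its log2 values on the arrays of replicates 1 to 4 were 8.19, 9.82, 9.13 and 9.82. Replicate 1 was low and replicates 2 and 4 were high, with replicate 3 between them. The value on replicate 1 lay 1.40 below the mean of the other arrays, a shift of -1.40 on the log2 scale or 2.63-fold lower. Its SD of 0.77 (n = 4) was larger than that of 99.8% of detected genes.

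Slc25a38, the glycine carrier, had log2 values of 10.20, 10.60, 10.53 and 10.51 on replicates 1 to 4. Only replicate 1 was low, with a shift of -0.35, and the other arrays lay within 0.09 of each other. Slc25a37, the iron importer, had values of 10.41, 10.61, 10.47 and 10.54. Its shift on replicate 1 was -0.13 and its range 0.20, and its SD of 0.087 (n = 4) exceeded that of 31.8% of detected genes, so it varied less than most. The related mitoferrin-2, Slc25a28, which serves iron import in many cell types, had values of 10.17, 10.27, 10.09 and 10.01 and was not lowest on replicate 1.

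**Figure D2:**
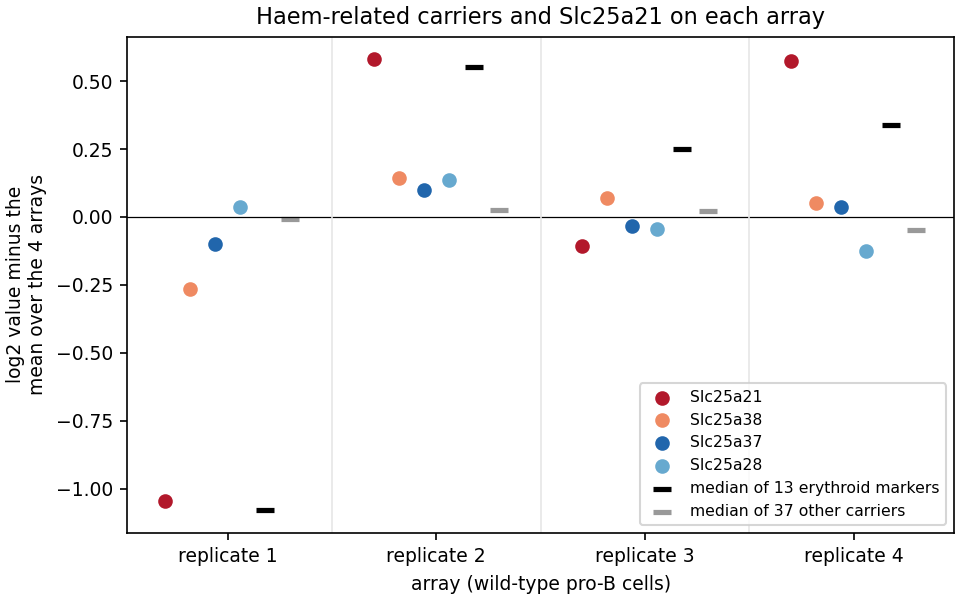
Log2 value minus the gene's mean over the 4 arrays (vertical axis) on each of the 4 pro-B cell arrays (horizontal axis) for Slc25a21, Slc25a38, Slc25a37 and Slc25a28 (points), with the medians of 13 erythroid markers and of 37 other carriers (bars). On replicate 1 Slc25a21 lies beside the erythroid median of -1.08 and the other carriers' median is at -0.01. On replicate 3 Slc25a21 lies below the erythroid median of 0.25.

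The 37 other detected carriers had no common shift on replicate 1. Their median shift was -0.01, with 19 lower and 18 higher than the mean of the other arrays, and they ranged from -0.29 to 0.67. Of all 40 detected carriers 22 were lower there (55.0%), against 47.8% of detected genes, and with other scalings of the arrays 23 to 25 carriers (57.5% to 62.5%) were, against 51.8% to 55.4% of detected genes. Lowest of the arrays was replicate 1 in 15 carriers (37.5%), among them Slc25a21, Slc25a37 and Slc25a38, against 29.0% of detected genes. A shift of -0.3 or lower was found for Slc25a21 and Slc25a38 and for no other carrier, that is 2 of 40 (5.0%) beside 6.36% of detected genes. A shift of that size was thus about as frequent among carriers as among genes in general.

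Erythroid markers moved far more than the carriers. All 13 were lower on replicate 1, with shifts of -2.27 to -0.72 and a median of -1.44. On each of the other arrays all 13 were higher than the mean of the rest, which includes the low replicate 1 and so favours that result. Klf1, an erythroid transcription factor, had log2 values of 7.66, 8.88, 9.14 and 8.88 on replicates 1 to 4. Slc4a1, the red-cell anion exchanger, had values of 8.52, 10.97, 10.72 and 10.69. The enzymes of haem synthesis were lower on replicate 1 as well, 8 of 8, with a median shift of -0.70. Alas2, the erythroid enzyme of the first step, which uses the glycine carried by Slc25a38, had values of 6.96, 8.06, 8.08 and 7.99. Fech, which inserts the iron, had values of 9.26, 10.10, 9.93 and 10.17.

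To place each carrier, its profile of 4 values, centred on the gene's mean, was set against the median profile of the 37 other carriers and that of the 13 erythroid markers. The measure was the root mean square (RMS) difference over the arrays, on the log2 scale. Slc25a21 was 0.21 from the erythroid profile and 0.67 from the carrier profile. It was the only one of 40 carriers nearer the erythroid profile (2.5%), beside 0.924% of detected genes. The erythroid profile was also the nearer one for 12 of 13 erythroid markers and for 4 of 8 haem enzymes. The profiles were medians of these same 13 markers and of 37 of these 40 carriers, which favoured the counts within both lists in advance. Slc25a21 itself entered neither profile. Slc25a38 was 0.15 from the carrier and 0.49 from the erythroid profile, and Slc25a37 was 0.08 from the carrier and 0.58 from the erythroid profile. Of the 5 median profiles compared, Slc25a38 lay nearest that of the haem synthesis enzymes, at 0.14. The carrier profile was nearly flat, at -0.05 to 0.02, so any gene that varied little lay near it. By size, therefore, Slc25a21 was nearest the erythroid markers, Slc25a37 varied little, like most carriers, and Slc25a38 lay between the haem enzymes and the carriers. On replicate 3, however, Slc25a21 had a shift of -0.14, where all 13 erythroid markers were higher, with a median shift of 0.33. By order alone, Slc25a21 and Slc25a37 ranked the replicates as the erythroid profile did, 2 of 40 carriers (5.0%) and 6.20% of detected genes. The part of erythroid cells in these values was not tested. Without replicate 1 the contrast between the profiles was lost, and 11 carriers lay nearer the erythroid profile.

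**Figure D3:**
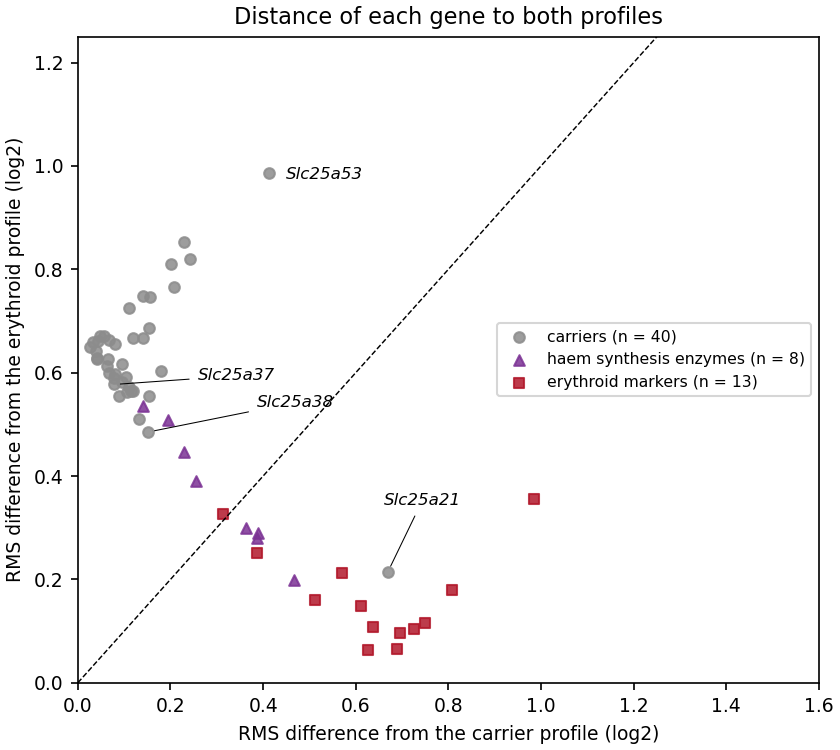
RMS difference of each gene's centred log2 profile over the 4 arrays from the median profile of the other carriers (horizontal axis) and from that of the erythroid markers (vertical axis), for 40 carriers, 8 haem synthesis enzymes and 13 erythroid markers. Genes under the dashed line of equal distance are nearer the erythroid profile: Slc25a21 is the only carrier there, at 0.67 and 0.21.

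The sequences before start sites are shown for Slc25a21 and Slc25a53, the members with the widest ranges, and for Slc25a38, the glycine carrier of haem synthesis. RefSeq (GRCm38.p6) gave windows for 36 of the 46 carriers, of which the 250 bases before each start were searched on both strands. Searched were the GATA motif NGATAN, with A or T first and A or G last, and the CACCC box CCNCACCC, motifs bound by GATA and Krüppel-like factors such as Gata1 and Klf1. Matches on either strand are in capitals, each sequence runs 5′ to 3′ along its gene, and no 2 of the printed matches overlap.
Slc25a21, upstream start, chr12:57197473-57197722, minus strand: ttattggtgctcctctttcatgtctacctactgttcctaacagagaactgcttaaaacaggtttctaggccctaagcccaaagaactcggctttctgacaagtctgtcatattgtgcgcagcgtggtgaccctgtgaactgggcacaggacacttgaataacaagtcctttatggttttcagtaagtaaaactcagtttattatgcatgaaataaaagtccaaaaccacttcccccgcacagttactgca
Slc25a21, downstream start, chr12:57160644-57160893, minus strand: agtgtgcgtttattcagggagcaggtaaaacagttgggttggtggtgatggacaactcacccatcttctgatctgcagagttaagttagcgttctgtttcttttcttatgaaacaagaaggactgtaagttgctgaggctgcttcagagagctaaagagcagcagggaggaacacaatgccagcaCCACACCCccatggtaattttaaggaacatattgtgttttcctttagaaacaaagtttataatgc
Slc25a38, chr9:120110132-120110381, plus strand: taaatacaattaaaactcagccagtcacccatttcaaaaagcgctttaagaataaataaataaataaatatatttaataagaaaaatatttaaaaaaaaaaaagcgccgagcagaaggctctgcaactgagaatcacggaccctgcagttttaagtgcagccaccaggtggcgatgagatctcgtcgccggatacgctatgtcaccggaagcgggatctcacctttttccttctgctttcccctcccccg
Slc25a53, upstream start, chrX:137038303-137038552, minus strand: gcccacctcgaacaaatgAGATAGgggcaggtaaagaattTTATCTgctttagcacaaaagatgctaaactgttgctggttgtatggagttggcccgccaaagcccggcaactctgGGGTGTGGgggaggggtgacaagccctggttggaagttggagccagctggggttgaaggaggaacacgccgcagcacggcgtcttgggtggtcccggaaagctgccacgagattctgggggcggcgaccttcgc

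A GATA match was in 6 of 46 carrier windows and in 26.5% of all 32851 windows of that length, and a CACCC box in 9 of 46 against 14.9%. The downstream start of Slc25a21 held 1 CACCC box, and neither motif was found at its upstream start or in the Slc25a38 window. The upstream Slc25a53 window held 2 GATA matches and 1 CACCC box, and its other window, chrX:136993033-136993282, held neither motif. These matches are descriptions of letters and say nothing of binding.

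Slc25a53, an X-linked carrier, was the other member with a wide range. Its log2 values on replicates 1 to 4 were 8.48, 7.88, 8.21 and 7.32. It was highest on replicate 1, with a shift of 0.67, and lowest on replicate 4, with a shift of -0.87. The early B-cell markers had median shifts of 0.68, -0.25, 0.12 and -0.56 on these arrays. Pax5, a transcription factor of B-cell commitment, had values of 11.49, 10.64, 10.90 and 10.17. Slc25a53 was 0.14 from the median profile of the early B-cell markers and 0.41 from that of the other carriers. Slc25a27 was almost equally far from both, 0.227 and 0.228. On replicate 3 its shift of -0.26 was opposite to the median shift of the markers, though 5 of 14 markers were lower there too. Counting Slc25a27, 2 of 40 carriers (5.0%) were nearer the early B-cell profile, beside 4.24% of detected genes. Only Slc25a53 was nearer with quantile normalization, cyclic loess or no background filter. The same held with the 90th percentile or the array median as the line, or with 3 of 4 arrays above it. With the 99th percentile line the 2 were Slc25a23 and Slc25a53. As reported, Slc25a23 was 0.248 from the early B-cell and 0.242 from the carrier profile. Leaving out replicate 1 or replicate 4 gave 4 carriers, Slc25a53 among them. Some markers of other lineages were also higher on replicate 1 and lower on replicate 4. The 4 megakaryocyte and platelet markers had median shifts of 0.31 and -0.58 there, with Ppbp, a platelet chemokine, at 1.55 and -2.06, and 3 of 4 were higher on replicate 1 and 4 of 4 lower on replicate 4. The natural killer cell genes Ncr1 and Klrb1c had shifts of 0.82 and 1.05 on replicate 1 and of -0.44 and -0.52 on replicate 4. They come from a list of 6 detected T and natural killer cell markers, which as a whole did not move that way. Of that list 4 of 6 were lower on replicate 1, and its median shifts were -0.08 there and -0.01 on replicate 4. The part of any of these cell types in the values of Slc25a53 was not tested.

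**Figure D4:**
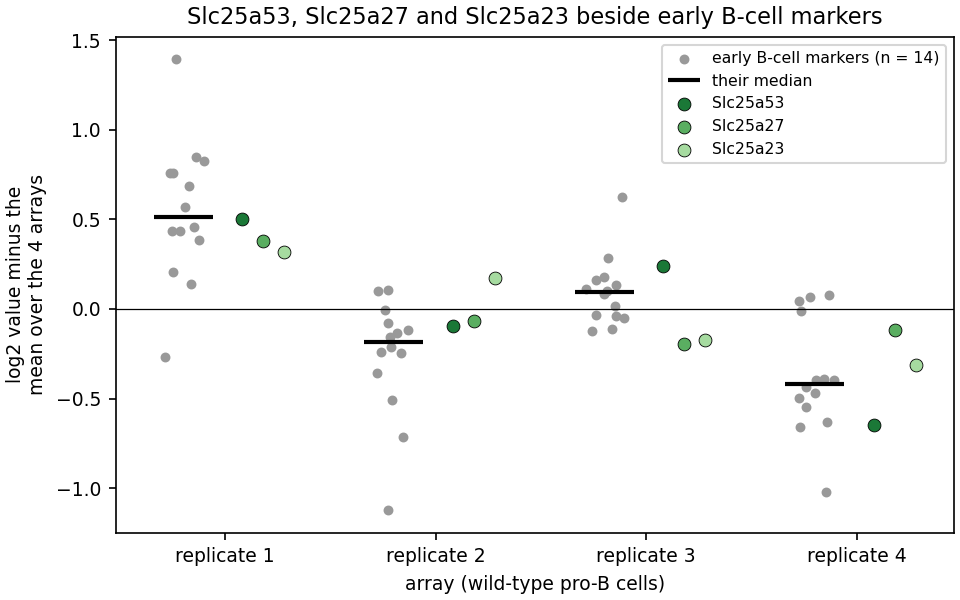
Log2 value minus the gene's mean over the 4 arrays (vertical axis) on each of the 4 pro-B cell arrays (horizontal axis) for 14 early B-cell markers (grey points, with their median as a bar) and for Slc25a53, Slc25a27 and Slc25a23 (green points). Over the arrays Slc25a53 has an RMS difference of 0.14 from the marker median, and it lies furthest from that median on replicate 4.

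The carriers that supply ATP synthase were among the steadiest. Slc25a3, the phosphate carrier, had log2 values of 12.76, 12.77, 12.82 and 12.81 on replicates 1 to 4, a range of 0.06. Slc25a4, an ADP/ATP carrier, had values of 10.21, 10.20, 10.33 and 10.29. Slc25a5, the other ADP/ATP carrier of most proliferating cells, had values of 14.08, 14.09, 14.06 and 13.96 by its brightest probe set. Its other 2 probe sets ranged over 0.06 and 0.28. All 3 are annotated with the same transcripts, so the copy of the gene that each one measures is uncertain. The calcium-regulated ATP-Mg/phosphate carriers differed more, most of all Slc25a23, with values of 8.51, 8.36, 8.02 and 7.88, highest on replicate 1 and lowest on replicate 4. Slc25a25 was lowest on replicate 4 too, at a shift of -0.35.

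Of the relatives of the uncoupling proteins, Slc25a14 and Slc25a30 had ranges of 0.13 and 0.14. Slc25a27, at 8.04 on replicate 1 and 7.47 to 7.60 on the others, had a shift of 0.50 there. Of these 3 relatives Slc25a27 had the widest range, 0.57.

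Of the carboxylate carriers other than Slc25a21, those of citrate and dicarboxylates were lower on replicate 1 by small amounts, and that of oxoglutarate was not. Slc25a1, which exports citrate for lipid synthesis, had log2 values of 10.15, 10.54, 10.39 and 10.38, lowest on replicate 1. Slc25a10, the dicarboxylate carrier, had values of 9.38, 9.73, 9.53 and 9.40. The oxoglutarate carrier Slc25a11, part of the malate-aspartate shuttle, had a range of 0.06. Among these 4 carriers the shift of Slc25a21 was by far the largest on replicate 1, and without it the others lay between -0.29 and 0.05.

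Of the amino acid and glutathione carriers, Slc25a38 included, 8 of 10 were lower on replicate 1 with each scaling, beside 47.8% of detected genes as deposited and 51.8% to 55.4% with other scalings. Their median shift was -0.11. The aspartate/glutamate carriers differed little, with ranges of 0.05 for Slc25a12 and 0.20 for Slc25a13. The ornithine carrier Slc25a15 had log2 values of 8.22, 8.43, 8.29 and 8.10. Slc25a18, a glutamate carrier, went the other way, at 7.57 on replicate 1 and 7.04 to 7.25 on the others. The glutathione carrier Slc25a39, which has also been linked to haem synthesis, had values of 10.54, 10.61, 10.65 and 10.68. It was lowest on replicate 1, but by a shift of only -0.11. By its brightest probe set, its relative Slc25a40 had values of 8.64, 8.17, 8.63 and 8.58, with replicate 2 apart from the rest. The other probe set of Slc25a40 had values of 7.51, 7.29, 7.73 and 7.38. There replicate 2 was lowest too, but not apart.

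Carriers of cofactors and nucleotides had a median shift of -0.03 on replicate 1, with 4 of 8 lower as deposited and 5 or 6 lower with other scalings. Slc25a16, linked to coenzyme A, had log2 values of 9.48, 9.60, 9.85 and 9.79. Slc25a17, which sits in the peroxisomal membrane and not in the mitochondrion, had values of 10.51, 10.62, 10.71 and 10.76. In both, replicate 1 was lowest. The S-adenosylmethionine carrier Slc25a26 had a range of 0.32, and the folate carrier Slc25a32 one of 0.09. The pyrimidine nucleotide carriers Slc25a33 and Slc25a36 and the NAD carrier Slc25a51 had ranges of 0.38, 0.28 and 0.17.

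The remaining detected members had ranges under 0.5 apart from Slc25a53. Slc25a20, the carnitine/acylcarnitine carrier of fatty acid oxidation, had log2 values of 9.12, 9.04, 9.15 and 9.02. Slc25a35, Slc25a43 and Slc25a45 had ranges of 0.36, 0.25 and 0.37, and Slc25a46, which lies in the outer mitochondrial membrane, one of 0.13. The detected members not yet named, Slc25a22, Slc25a24, Slc25a29, Slc25a42, Slc25a44 and Slc25a47, had ranges of 0.24 (Slc25a47) to 0.49 (Slc25a42). The 4 X-linked carriers did not share the drop of Xist on replicate 3, where Slc25a5, Slc25a14, Slc25a43 and Slc25a53 had shifts of 0.01, 0.04, 0.20 and 0.32.

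Most genes of the other mitochondrial lists were lower on replicate 1. For the respiratory chain and ATP synthase 15 of 15 genes were lower, with a median shift of -0.20 and a range of shifts from -0.26 to -0.02. The same 15 were higher on replicate 3, with a median shift of 0.18. In the mitochondrial import machinery, 9 of 10 genes were lower on replicate 1 (median shift -0.20). The exception was Timm22, the channel that inserts the carriers into the inner membrane, with a shift of 0.18. Timm8a1, a chaperone of the space between the membranes, had log2 values of 10.04, 10.69, 11.06 and 10.62 and a shift of -0.75, and Tomm20, a receptor of the outer membrane, a shift of -0.39, both past that of Slc25a38. Of 4 malate-aspartate shuttle enzymes all were lower (median shift -0.16), and of 14 other mitochondrial transporters 10 were (median shift -0.16). The most negative of these was Abcb10, a transporter required for haem production that binds mitoferrin-1, with log2 values of 8.45, 9.30, 9.31 and 9.32 and a shift of -0.86. These shifts compare with 47.8% of detected genes lower on replicate 1 and a median shift of 0.01 over all of them. With the other scalings of the arrays the median shift of all genes on replicate 1 was slightly negative, at -0.02 to -0.01.

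**Figure D5:**
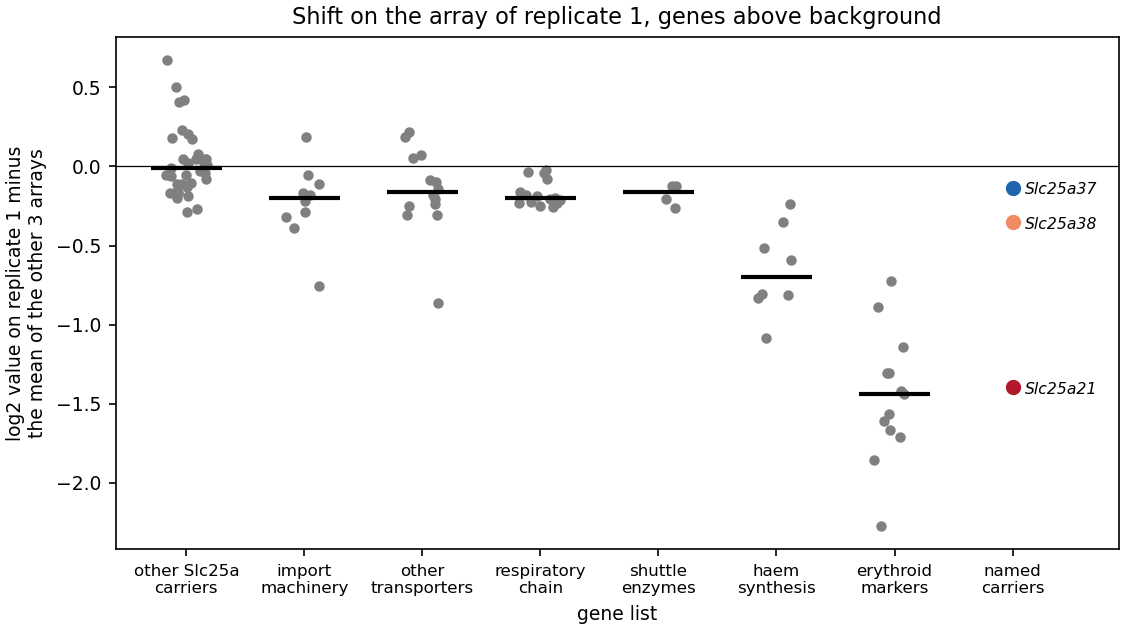
Log2 value on the array of replicate 1 minus the mean of the other 3 arrays (vertical axis) for genes above background in 7 gene lists and for 3 named carriers (horizontal axis). Grey points are genes and bars are medians, at -0.01 for the 37 other carriers, -0.70 for haem synthesis and -1.44 for erythroid markers; Slc25a21 lies at -1.40.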

How the data were processed

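RNA of wild-type pro-B cells was hybridized to 4 Affymetrix Mouse Gene 1.0 ST arrays. The deposited log2 values, 1 per probe set, were made by the authors with RMA for background and normalization. Which arrays entered RMA together, and the cut-off of their filter on low values, is not given in the sources used here. RMA evens out differences common to a whole array, so only differences relative to other genes can be seen. All 34760 probe sets were kept, with array medians of 7.31 to 7.35, and 0 columns were left without a sample.

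Symbols came from the platform's annotation, where 21640 probe sets have 1 symbol, 1321 several and 11799 none listed; all 46 carrier genes matched RefSeq by gene identifier with 0 symbols changed. No gene coordinates are printed beside expression values, because these carry no build. Of several probe sets, the one brightest on average stood for the gene, which was above background if any probe set was. By that rule 45 of the 1246 receptor probe sets passed too. Levels of different probe sets were not compared.

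A shift is the value on 1 array less the mean over the others. Named were Slc25a21, Slc25a37, Slc25a38, members with a range of at least 1, those with 1 array far from the rest and the first 3 detected members of each substrate group; further genes were named after their values were seen. The members, marker lists and profiles were chosen with earlier results of these data known. The early B-cell distances and the counts of genes lower, lowest or in a given order on the arrays were added after the values were seen. A comparison of carrier protein sequences was planned and is not reported here. Alternatives were other background lines, no background filter, averaging probe sets, quantile normalization, median centring, cyclic loess and leaving out each array. No test between groups was made. The number of arrays limits the precision. The calculations were tested on simulated data. Tools were Python 3.11.15, numpy 2.4.6, pandas 2.3.3, R 4.3.3 and limma 3.58.1 (normalization only).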

Additional observations from a re-analysis of the deposited data

Results flagged for a closer look

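Of 50 carrier probe sets, 3 had 1 array far from the others by Dixon's ratio for 4 values, where chance gives about 1 in 20, or 2.5. The brightest probe set of Slc25a40 was lowest on replicate 2, at a log2 value of 8.17 against 8.58 to 8.64 on the other arrays. Its other probe set was not flagged, at 7.29 on replicate 2 against 7.38 to 7.73. The second probe set of Slc25a36 was highest on replicate 1, at 10.32 against 10.18 to 10.19. Slc25a34, which was not above background, was lowest on replicate 3, at 6.36 against 6.46 to 6.47.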

How the results depend on the processing

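Of 95 alternative values, 85 stayed within the spread between replicates, or within 1.5 times for counts, and none changed sign for Slc25a21, Slc25a37 or Slc25a38. This count is a weak check. The allowance was wide, being the gene's own SD for its shift and the carriers' median SD for the medians. Slc25a21, Slc25a37 and Slc25a38 have 1 probe set each, so the 99th percentile line, no background filter and averaging could not alter their shifts. With a range of at least 0.5 in place of 1, 5 carriers passed (Slc25a18, Slc25a21, Slc25a23, Slc25a27 and Slc25a53). Leaving out 1 replicate at a time, 0 to 2 carriers spanned at least 1, with 0 without replicate 1 and 1 (Slc25a21) without replicate 4. With the haem synthesis enzymes as the erythroid profile, 2 carriers were nearer it, Slc25a21 and Slc25a38; when each replicate was left out, 1 to 11 were nearer the erythroid profile, with 11 without replicate 1, the array that sets that profile apart. Nearer the early B-cell profile was 1 carrier, Slc25a53, with quantile normalization, cyclic loess or no background filter, and 3 to 4 were with 1 replicate left out, always including Slc25a53. With the 99th percentile line there were 2, Slc25a23 and Slc25a53, so Slc25a27 was replaced. The shift on replicate 1 was -1.62 to -1.28 for Slc25a21, -0.39 to -0.33 for Slc25a38 and -0.17 to -0.10 for Slc25a37 over all alternatives. Carriers above background numbered 35 with the 99th percentile line or the array median and 42 with the 90th percentile; carriers near the line are the least certain. No paired analysis was possible because there is only 1 group of arrays.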
